A study of Mus musculus with 28 samples.

Results

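A set of 245 genes was examined in the amygdala of mice that drank water or alcohol. They are the genes whose identifiers are listed in the table of the second batch of mice and not in the table of the first batch used here, and whose mean raw count over the 17 second-batch mice was at least 100. The second-batch table lists 51073 genes, of which 49477 are also in the first-batch table and 1596 are not. Of these 1596 genes, 667 had no count in any mouse and 1220 had a mean under 10. A rule that left out *Fkbp5*, *Nr3c1*, *Hspa1a* and *Hspa1b* removed no gene, because both tables list all 4. Why these identifiers are not in the first-batch table used here was not determined, so membership is given as a fact of the tables alone. The members were chosen by their listing and by their mean raw count, and no difference between drinking groups was used in choosing them. Just inside the threshold were *AC165962.1*, *Pstpip2* and *AC109619.1*, with mean raw counts of 100.1, 100.7 and 102.6. Just outside it were *Onecut2*, *Sfxn2* and *Pola2*, with 99.1, 96.9 and 94.0.

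All mice were adult C57BL/6J females (C57BL6/J in the sample labels) housed singly. The 6 Water mice drank only water, the 5 Acute Drinking mice had a single session with a choice of 20% ethanol and water, and the 6 Chronic Drinking mice had that choice every other day for about a month. The drinking mice kept both tubes, ethanol included, in the home cage until they were killed on the day after that last session began. Tissue was taken as bilateral micropunches aimed at the whole amygdala, with the basolateral and central nuclei, so each library is a mixture of cell types. In such tissue, fewer cells of a type and less RNA per cell cannot be told apart. The 11 first-batch mice enter no comparison below, so no result has a check in a second batch. Total counts were 20004380 to 20208978 in the Water mice, 20117248 to 20361343 in the Acute mice and 20135215 to 20890964 in the Chronic mice. Markers of neurons, astrocytes, oligodendrocytes and both amygdala nuclei were detected in every group, and no gene of any marker list was at 0 over a group.

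The amygdala joins sensory input to emotional output. Glutamatergic neurons of its basolateral part excite one another through AMPA, NMDA and kainate receptors, whose speed and number are set by auxiliary proteins. GABAergic neurons of the central part carry the output, and G protein-coupled receptors for noradrenaline, serotonin and peptides tune both. Myelin around their axons is made by oligodendrocytes, which need iron and long-chain lipids. The 245 genes include proteins of each of these systems, and the question was whether any of them differed in amount after a single session of alcohol drinking or after repeated drinking.

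The genes shared a genomic location that the rule did not use. In GRCm38 (GENCODE M21), 143 lie on chromosome 19, 80 on chromosome 18 and 17 on chromosome 17, the last all between 25727670 and 32350607. *Gm10359* lies on chromosome 5, *Otud6b* on chromosome 4, and 3 identifiers have no entry in that annotation. On chromosome 19 they made up 35.8% of the genes with a mean count of 100 or more, on chromosome 18 they made up 23.2%, and on chromosome 17 they made up 3.09%. They were scattered among genes of both tables and formed no single block, with at most 6 neighbours in a row on chromosome 19, 7 on chromosome 18 and 2 on chromosome 17. Protein-coding genes made up 233 of them. The others were 4 lincRNAs, 2 antisense RNAs, a processed pseudogene, a processed transcript, a sense intronic RNA and the 3 identifiers without an entry. In abundance, GC content and length they resembled the 11576 genes of both tables with a mean of at least 100. Their median mean count was 661 against 660, their median GC content 51.0% against 50.7% and their median transcript length 1.88 kb against 1.89 kb. Together the 245 genes held 2.03% ± 0.0153 (SD, n = 6) of all counts in the Water mice, 2.03% ± 0.0157 (SD, n = 5) in the Acute mice and 2.02% ± 0.0192 (SD, n = 6) in the Chronic mice.

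Among the most abundant were brain genes of lipid, iron and membrane metabolism. Values below are normalized counts, that is counts scaled by edgeR's TMM factors to the mean library. *Scd2*, a stearoyl-CoA desaturase of brain and myelin lipid synthesis, was at 26815 ± 975 (SD, n = 6) in the Water mice, 26954 ± 883 (SD, n = 5) in the Acute mice and 26669 ± 1615 (SD, n = 6) in the Chronic mice. *Fbxl16*, an F-box protein of neurons, was at 25952 ± 2007, 26017 ± 1812 and 27029 ± 369 in the same groups. *Rtn3*, a reticulon that shapes the endoplasmic reticulum, was at 24122 ± 533, 24530 ± 1178 and 24827 ± 631. *Fth1*, the heavy chain of the iron store ferritin, was at 21212 ± 986, 21826 ± 1097 and 21688 ± 1101. For these 4 genes the groups overlapped, and the log2 fold changes against Water lay between -0.01 and 0.06 with adjusted p of 0.59 or more in edgeR's quasi-likelihood test. The *Rtn3* value in Chronic against Water, 0.04, was 0.11 (unadjusted p = 0.00264) with offsets for GC content and length in the fit. Per kb of transcript the order was different. *Fth1* led with 23925 raw counts per kb, followed by *Fbxl16* with 11919, *Reep5*, an endoplasmic reticulum protein, with 9321, and the glycolytic enzyme *Pgam1* with 9271. The range within the set was wide, with 94 genes above a mean raw count of 1000 and 5 above 10000.

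Repeated drinking was examined first. In Chronic against Water none of the 245 genes was called by edgeR at an adjusted p under 0.05, the lowest adjusted p being 0.14. Over all 16435 genes tested 0.0243% were called, which was 4 genes. At an unadjusted p under 0.05 there were 44 of the 245 genes (18%), 26 of them higher and 18 lower in the Chronic mice. The background at that level was 13.5% of all genes tested (6.52% higher and 7.02% lower) and 16.3% of the 11576 genes of both tables with a mean of 100 or more. DESeq2, run as an alternative, called 5 of the 184 members to which it gave an adjusted p, beside 1.99% of the 8788 genes to which it gave one over the whole table. They were *Gng3*, *Snx32*, *Cnih2* and *Ndfip1*, higher in the Chronic mice, and *Pdzd8*, lower. The differences in the set were small. The median log2 fold change was 0.012, against 0.000347 over all genes tested, 90% of the values lay between -0.18 and 0.18, and only the pseudogene *Gm10359* reached 1 in size.

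**Figure D1:**
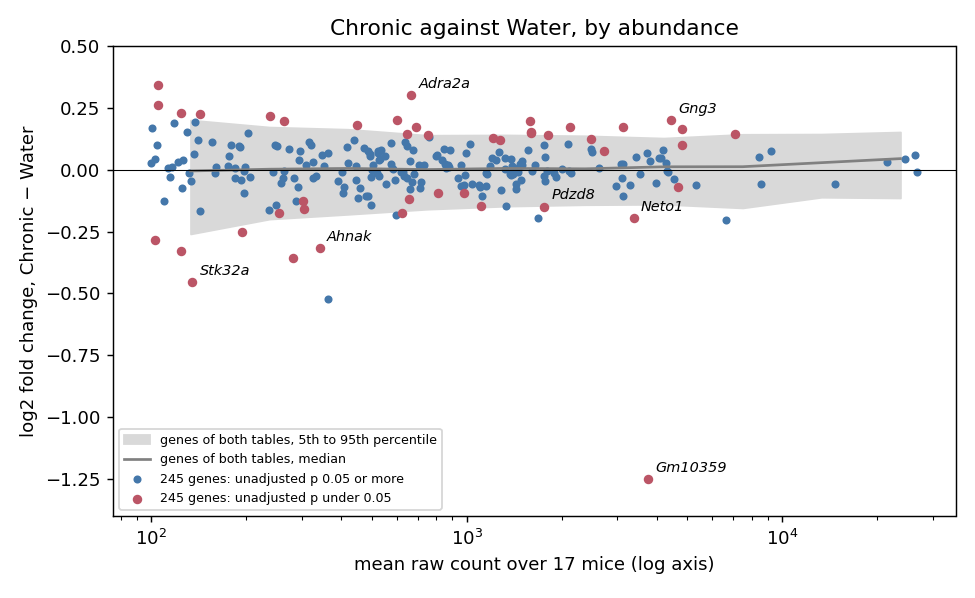
The log2 fold change of each of the 245 genes, Chronic minus Water, is plotted against its mean raw count on a log axis, with the 5th to 95th percentile and the median of the genes of both tables in grey. Points in red have an unadjusted p under 0.05 (44 genes), none passed an adjusted p under 0.05 in edgeR, and nearly all points lie inside or close to the grey band.

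*Gng3* encodes a neuronal gamma subunit of heterotrimeric G proteins (ENSMUSG00000071658, chromosome 19, 8836933 to 8839194, minus strand). Its normalized counts were 4019, 4171, 4546, 3944, 4183 and 3969 in the 6 Water mice, 4493, 4502, 4296, 4417 and 4299 in the 5 Acute mice, and 5174, 5094, 4452, 4894, 4731 and 4186 in the 6 Chronic mice. Every Chronic mouse was above the Water mean, while 2 of them lay inside the range of the Water mice. The log2 fold change was 0.20 ± 0.048 (SE) in Chronic against Water, with an adjusted p of 0.14 by edgeR and of 0.0137 by DESeq2, and an exact two-sided permutation p of 0.0108 on log2 CPM. Without Chronic mouse 6, edgeR gave an adjusted p of 0.0476. The gene overlaps *Bscl2* on the opposite strand, and the strand setting of the counting is not given in the sources used here.

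*Cnih2* encodes a cornichon protein that slows the closing of AMPA receptors (ENSMUSG00000024873, chromosome 19, 5092868 to 5098521, minus strand). The Water mice had 4640, 4536, 5108, 4076, 4454 and 4306, the Acute mice 4917, 5197, 4913, 4736 and 4648, and the Chronic mice 5278, 5080, 5130, 5284, 4822 and 4792. All 6 Chronic mice and all 5 Acute mice were above the Water mean, and the groups overlapped through 1 high Water mouse. Chronic against Water gave a log2 fold change of 0.16 ± 0.047 (SE) (adjusted p = 0.203 by edgeR, 0.046 by DESeq2). It was 0.11 ± 0.049 (SE) in Acute against Water (adjusted p = 0.908 by edgeR). With offsets for GC content and length the Chronic value was 0.08 (unadjusted p = 0.0259). *Cnih2* overlaps *Yif1a* on the opposite strand.

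*Pdzd8* encodes a lipid-transfer protein at contacts between the endoplasmic reticulum and other organelles (ENSMUSG00000074746, chromosome 19, 59297178 to 59345780, minus strand). The Water mice had 1806, 1788, 1703, 1891, 1919 and 1984, the Acute mice 1830, 1702, 1754, 1727 and 1815, and the Chronic mice 1536, 1657, 1658, 1707, 1750 and 1697. All 6 Chronic mice were below the Water mean. In Chronic against Water the log2 fold change was -0.15 ± 0.04 (SE), with an adjusted p of 0.179 by edgeR and 0.035 by DESeq2, and it was -0.05 (unadjusted p = 0.138) once offsets for GC content and length were in the edgeR fit.

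The promoters of these 3 genes are shown because they are the start regions of genes that DESeq2 called, in opposite directions. They are RefSeq sequences of GRCm38.p6, 250 bases before to 50 bases after the start that RefSeq gives, 5′ to 3′ on the gene's strand (minus for all 3). Capitals mark matches on either strand to 4 motifs. The GC box core was searched as GGGCGG. The CCAAT box was searched by the letters of its name. The palindromic cyclic AMP response element was searched as TGACGTCA. The TATA box was searched as TATAAA, and no matches of different motifs overlap. The regions are chr19:8839197-8839496, chr19:5098472-5098771 and chr19:59345731-59346030.
Gng3: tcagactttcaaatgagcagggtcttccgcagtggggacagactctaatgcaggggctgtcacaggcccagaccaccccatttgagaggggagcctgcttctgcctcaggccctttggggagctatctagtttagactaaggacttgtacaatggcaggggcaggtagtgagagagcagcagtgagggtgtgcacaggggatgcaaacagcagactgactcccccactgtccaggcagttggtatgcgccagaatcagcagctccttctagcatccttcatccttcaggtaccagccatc
Cnih2: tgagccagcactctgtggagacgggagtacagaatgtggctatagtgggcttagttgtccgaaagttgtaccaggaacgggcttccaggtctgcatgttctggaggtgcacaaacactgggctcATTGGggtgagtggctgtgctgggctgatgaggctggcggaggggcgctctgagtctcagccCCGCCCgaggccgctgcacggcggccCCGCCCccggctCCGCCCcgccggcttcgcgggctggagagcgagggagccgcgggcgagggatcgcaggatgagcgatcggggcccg
Pdzd8: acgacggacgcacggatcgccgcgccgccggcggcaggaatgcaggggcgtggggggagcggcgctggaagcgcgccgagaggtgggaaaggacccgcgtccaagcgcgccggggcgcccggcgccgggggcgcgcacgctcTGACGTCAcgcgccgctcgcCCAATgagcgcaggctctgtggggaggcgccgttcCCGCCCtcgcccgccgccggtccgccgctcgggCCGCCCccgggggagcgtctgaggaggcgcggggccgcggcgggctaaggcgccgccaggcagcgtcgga
RefSeq starts *Gng3* 52 bases upstream of its start in GENCODE M21, so the printed *Gng3* window lies wholly upstream of the gene as placed above, while the starts of *Cnih2* and *Pdzd8* are the same in both. None of the 4 motifs is in the *Gng3* window, whose GC content is 55.7%. The *Cnih2* window, with 67.3% GC, holds 3 GC box cores and 1 CCAAT box. The *Pdzd8* window, with 80.3% GC, holds 2 GC box cores, 1 CCAAT box and 1 cyclic AMP response element. A promoter was found by symbol for 124 of the 245 genes, with 146 entries in all. Among these entries 74.0% hold GGGCGG, against 62.8% of 11777 entries for genes of both tables with a mean of at least 100 and 35.7% of all 32851 entries. A CCAAT box is in 43.2% of them, against 37.3% and 37.4%. The cyclic AMP response element is in 3.42%, against 3.11% and 1.79%, and the TATA box in 6.85%, against 6.80% and 13.6%. A match gives the letters only and no evidence of binding.

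*Snx32*, a sorting nexin of endosomes (chromosome 19, 5492235 to 5510538, minus strand), separated Chronic from Water mice without overlap. It had 1539, 1548, 1531, 1432, 1572 and 1387 normalized counts in the Water mice, 1743, 1571, 1663, 1590 and 1548 in the Acute mice, and 1742, 1632, 1660, 1646, 1634 and 1664 in the Chronic mice. The log2 fold change was 0.15 ± 0.038 (SE) in Chronic against Water (adjusted p = 0.167 by edgeR, 0.0312 by DESeq2) and 0.11 ± 0.04 (SE) in Acute against Water (adjusted p = 0.908 by edgeR). The exact permutation p in Chronic against Water was 0.00216, the smallest that 6 against 6 mice allow. *Snx32* overlaps the *Cfl1* gene on the opposite strand and *1700020D05Rik* on its own strand. *Pacs1*, a sorting adaptor between endosomes and the trans-Golgi network, was the only other gene of the set without overlap. It lay between 2613 and 2688 in the Water mice, 2563 and 2870 in the Acute mice and 2719 and 2863 in the Chronic mice (Chronic against Water log2 fold change 0.08 ± 0.03 SE, adjusted p = 0.285 by edgeR). The *Pacs1* value was 0.06 with GC content and length offsets (unadjusted p = 0.0742) and 0.06 with the striatal marker score described below as a covariate (unadjusted p = 0.0921). Over all genes tested, 0.426% were higher without overlap in Chronic than in Water mice and 0.365% were lower.

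*Ndfip1*, an adaptor that recruits Nedd4-family ubiquitin ligases (ENSMUSG00000024425, chromosome 18, 38410396 to 38465303, plus strand), had 6588, 7019, 6968, 6330, 6983 and 6267 in the Water mice. The Acute mice had 7582, 7303, 7249, 6947 and 6959, and the Chronic mice 7410, 7124, 7896, 7630, 7587 and 6742. All 11 drinking mice were above the Water mean, and all but 1 Chronic and 2 Acute mice were above the highest Water mouse. The log2 fold change was 0.14 ± 0.042 (SE) in Chronic against Water (adjusted p = 0.203 by edgeR, 0.0466 by DESeq2) and 0.11 ± 0.044 (SE) in Acute against Water (adjusted p = 0.908 by edgeR).

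**Figure D2:**
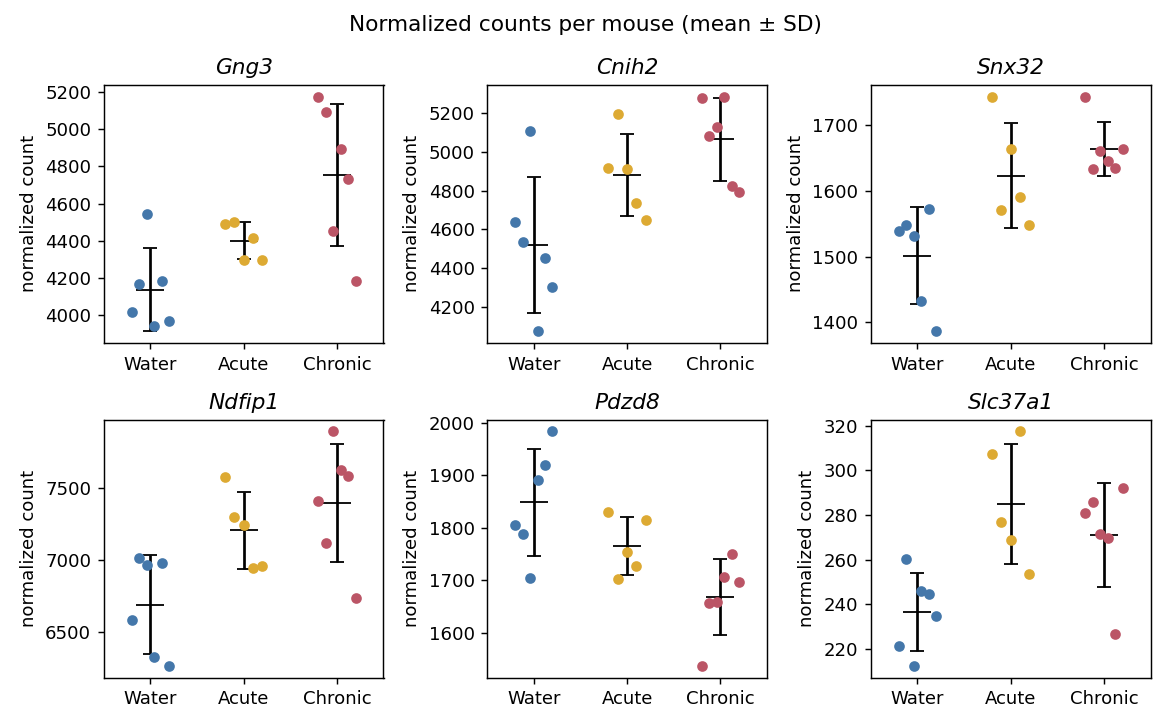
Normalized counts of 6 genes are plotted for each of the 6 Water, 5 Acute and 6 Chronic mice (points), with the group mean and SD as a bar; the axes do not start at 0. For Gng3, Cnih2, Snx32 and Ndfip1 the Chronic mean lies above the Water mean, for Pdzd8 it lies below (1668 against 1849), and for Slc37a1 the Acute mean is the highest (285 against 237 in Water).

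The other genes with the smallest p in Chronic against Water had no call in either tool. Among those higher were *Slc6a7*, the brain proline transporter of glutamatergic terminals (log2 fold change 0.17 ± 0.051 SE), *Lzts2*, a leucine zipper protein (0.14 ± 0.039 SE), and *B4gat1*, a glucuronyltransferase that builds the laminin-binding sugar of dystroglycan (0.14 ± 0.043 SE). The non-coding *AC121821.1* was at 87.2 to 109.6 normalized counts in the Water mice, 91.6 to 104.2 in the Acute mice and 108.5 to 139.0 in the Chronic mice (log2 fold change 0.26 ± 0.083 SE). Its Chronic mice were all above its Acute mice, and it overlaps *Gm28285* on the same strand. Among those lower were *Neto1*, an auxiliary subunit of kainate and NMDA receptors (-0.19 ± 0.063 SE), *Epg5*, a tether of autophagosomes to lysosomes (-0.14 ± 0.046 SE), and *Stk32a*, a serine/threonine kinase (-0.45 ± 0.153 SE). The edgeR adjusted p of these 7 genes lay between 0.192 and 0.231. With GC content and length offsets *Slc6a7* was at 0.12 (unadjusted p = 0.0381, and 0.0581 with the replicate number added as a block) and *Lzts2* at 0.08 (unadjusted p = 0.0589). With the striatal marker score as a covariate they were at 0.11 (unadjusted p = 0.0265) and 0.11 (unadjusted p = 0.0127). *Neto1* had 3908, 3673, 3774, 3797, 3105 and 3767 in the Water mice, 2883, 3045, 3523, 3362 and 3582 in the Acute mice, and 3206, 2816, 3389, 3063, 3286 and 3482 in the Chronic mice. Water mouse 5 was the one Water mouse inside the range of the others. With GC content and length offsets its log2 fold change was -0.12 in Chronic against Water (unadjusted p = 0.075).

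A single session was examined next. In Acute against Water none of the 245 genes was called by edgeR or by DESeq2, and of all genes tested 0.0% were called by either. At an unadjusted p under 0.05 there were 16 of the 245 genes (6.53%), 11 higher and 5 lower, against a background of 5.04% over all genes tested (2.43% higher and 2.61% lower) and 5.22% of the genes of both tables with a mean of 100 or more. None separated the Acute from the Water mice without overlap, while 0.213% of all genes tested were higher and 0.231% lower without overlap. The count was unstable, falling to 6 without Acute mouse 1, 10 without Acute mouse 2 and 9 without Water mouse 4 or Water mouse 6. The smallest p belonged to *Slc37a1*, a glucose-6-phosphate and phosphate antiporter (ENSMUSG00000024036, chromosome 17, 31286792 to 31350739, plus strand). It had 221, 260, 212, 246, 245 and 235 in the Water mice, 307, 277, 269, 318 and 253 in the Acute mice, and 281, 286, 272, 270, 226 and 292 in the Chronic mice. Only 1 Acute mouse fell inside the Water range. Its log2 fold change was 0.27 ± 0.076 (SE) in Acute (adjusted p = 0.908, exact permutation p = 0.00866) and 0.20 ± 0.072 (SE) in Chronic (adjusted p = 0.26). On the lower side, *Naa40*, which acetylates the amino termini of histones H2A and H4, was at 702 ± 38.8 (SD, n = 6) in the Water mice, 633 ± 27.5 (SD, n = 5) in the Acute mice and 679 ± 18.8 (SD, n = 6) in the Chronic mice. *Pura*, a single-stranded DNA and RNA binding protein needed for neuronal development, had a log2 fold change of -0.23 ± 0.08 (SE) in Acute, and of -0.14 (unadjusted p = 0.0281) with GC content and length offsets. *Ldlrad4*, an inhibitor of TGF-beta signalling, had -0.21 ± 0.073 (SE), and *Ahnak*, a giant scaffold protein, had -0.32 ± 0.131 (SE). For these 4 genes the adjusted p was 0.908, and all 5 Acute mice were below the Water mean.

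Chronic and Acute mice were also compared with each other. Here 9 of the 245 genes had an unadjusted p under 0.05 (3.67%), 5 higher and 4 lower in the Chronic mice, beside 4.02% of all genes tested (2.12% higher and 1.9% lower), and none was called by either tool. Of all genes tested edgeR called 0.0% and DESeq2 0.0183%. *AC121821.1* was higher without overlap, with a log2 fold change of 0.28 ± 0.087 (SE) and an adjusted p of 1.0, beside 0.195% of all genes tested higher and 0.207% lower without overlap. Both comparisons with Water share the same 6 Water mice, so the values of a gene in them are not independent.

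The set was also read by the roles of its genes, with 114 of the 245 genes in at least 1 of 10 lists. The counts below are at an unadjusted p under 0.05, at which 13.5% of all genes tested stood in Chronic against Water and 5.04% in Acute against Water. No list was tested against these shares. List names are broad, and the synaptic list holds *Pdzd8*, described above as a lipid-transfer protein, and not the proline transporter *Slc6a7*. Of 12 synaptic and neurosecretory genes, 2 were higher (*Cnih2* and *Neurl1a*) and 2 lower (*Neto1* and *Pdzd8*) at an unadjusted p under 0.05 in Chronic against Water, and the median log2 fold change was -0.010 (all genes tested 0.000347). That tally depends on the fit, since with GC content and length offsets *Neurl1a* was at 0.08 (unadjusted p = 0.128), and *Neto1* and *Pdzd8* also had an unadjusted p above 0.05. *Rtn3*, of the same list, went the other way and was higher at an unadjusted p under 0.05 only with the offsets, as given above. Without offsets, 7 of 12 fits that left out 1 mouse gave *Neurl1a* an unadjusted p of 0.05 or more, and its exact permutation p was 0.0606. In Acute against Water *Cnih2* was higher and *Neto1* lower, with a median of -0.010. With GC content and length offsets these Acute values were 0.06 (unadjusted p = 0.101) and -0.11 (unadjusted p = 0.112). Without offsets the exact permutation p in Acute was 0.0606 for *Cnih2* and 0.0736 for *Neto1*. *Lrrtm2*, an adhesion protein of excitatory synapses, and *Slc18a2*, the vesicular monoamine transporter, lay at -0.01 ± 0.060 and -0.17 ± 0.103 (SE) in Chronic against Water. Of 9 receptors, channels and G proteins, *Gng3* and *Adra2a* were higher and *Htr4* lower in Chronic against Water, and *Adra2a* was higher in Acute against Water. *Adra2a*, the alpha-2A adrenergic receptor, had 497, 649, 481, 598, 676 and 612 in the Water mice, 802, 655, 728, 635 and 685 in the Acute mice, and 709, 922, 683, 686, 796 and 531 in the Chronic mice. Its log2 fold change was 0.26 ± 0.113 (SE) in Acute (adjusted p = 0.908) and 0.30 ± 0.107 (SE) in Chronic (adjusted p = 0.25), and the Chronic value was 0.16 (unadjusted p = 0.0869) with the striatal marker score as a covariate. The exact permutation p of *Adra2a* was 0.026 in Acute and 0.0628 in Chronic. In Acute 4 of 11 fits that left out 1 mouse gave *Adra2a* an unadjusted p of 0.05 or more. The beta-1 adrenergic receptor *Adrb1* was at 550 ± 46.5, 582 ± 45.3 and 593 ± 37.2 (SD) in Water, Acute and Chronic mice, with a Chronic log2 fold change of 0.11 ± 0.061 (SE). The serotonin receptor *Htr4* was at 139 ± 24.1, 123 ± 17.9 and 111 ± 26 (SD). Its Chronic log2 fold change was -0.33 ± 0.149 (SE), it was -0.15 (unadjusted p = 0.248) with the striatal marker score described below as a covariate, and 7 of 12 fits that left out 1 mouse gave an unadjusted p of 0.05 or more.

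None of the 17 mitochondrial genes had an unadjusted p under 0.05 in either comparison with Water, beside 13.5% of all genes tested in Chronic and 5.04% in Acute. Their median log2 fold change was 0.026 in Acute and 0.030 in Chronic. They include *Cox8a*, a subunit of cytochrome c oxidase (0.08 ± 0.057 SE in Chronic), and *Hspa9*, the mitochondrial Hsp70 (-0.02 ± 0.041 SE). *Uqcc3*, an assembly factor of respiratory complex III that the list does not hold, lay between 99.3 and 145 in the Water mice, 134 and 170 in the Acute mice and 109 and 170 in the Chronic mice. Its log2 fold change was 0.27 ± 0.116 (SE) in Acute against Water (unadjusted p = 0.0304, adjusted p = 0.908 by edgeR) and 0.19 ± 0.111 (SE) in Chronic against Water (adjusted p = 0.462 by edgeR). In Acute against Water 5 of 11 fits that left out 1 mouse gave it an unadjusted p of 0.05 or more. Of 9 genes of lipid, iron and myelin metabolism, only *Gstp1*, a glutathione transferase, was higher in Chronic (0.17 ± 0.058 SE, adjusted p = 0.227 by edgeR, and 0.095 with an unadjusted p of 0.035 under GC content and length offsets, or 0.0629 with the replicate block added), and none differed in Acute at that level. The fatty acid desaturases *Fads1* and *Fads2* had 0.04 ± 0.036 and 0.07 ± 0.043 (SE) in Chronic, and *Opalin*, a myelin membrane protein and the only gene of the set in the cell type marker lists used here, had -0.01 ± 0.125 (SE). The list of 16 translation and folding genes also holds *Reep5*, the endoplasmic reticulum protein, and *Ddb1*, a DNA-damage adaptor of ubiquitin ligases. *Reep5* was higher in Acute (0.07 ± 0.034 SE) and *Ddb1* lower in Chronic (-0.07 ± 0.029 SE). The list's other genes had an unadjusted p of 0.05 or more in both comparisons with Water. An unadjusted p of 0.05 or more came from 6 of 11 fits without 1 mouse for *Reep5* and from 5 of 12 for *Ddb1*. Of 13 genes of transcription and chromatin, 2 were higher in Chronic, *Polr2g*, a subunit of RNA polymerase II (0.14 ± 0.050 SE), and *Cxxc5*, a CpG-binding protein (0.20 ± 0.080 SE, and 0.11 with an unadjusted p of 0.197 under those offsets). Their exact permutation p in Chronic was 0.00866 and 0.0584. In Acute against Water *Pcgf6*, a Polycomb group protein, was higher (0.12 ± 0.056 SE) and *Pura* lower in that list. For *Pcgf6* 7 of 11 fits that left out 1 mouse gave an unadjusted p of 0.05 or more, the weakest 0.07 (unadjusted p = 0.195) without Acute mouse 1. In the list of kinases and phosphatases, whose 13 genes include the glycolytic enzyme *Pgam1*, only *Stk32a* differed. Of 10 RNA-processing genes only *Zmat2* was higher (0.12 ± 0.046 SE, and 0.10 with an unadjusted p of 0.0516 with the striatal covariate), both in Chronic. Of 13 genes of cytoskeleton and membrane traffic, *Snx32* and *Pacs1* were higher and *Ahnak* and *Atl3* lower in Chronic, and *Snx32* was higher and *Ahnak* lower in Acute. *Atl3* was at -0.12 in Chronic and at -0.07 (unadjusted p = 0.0864) with GC content and length offsets. Fits that left out 1 mouse gave *Ahnak* an unadjusted p of 0.05 or more in 2 of 12 cases in Chronic and 3 of 11 in Acute. The 2 activity-induced genes, *Npas4* and *Hbegf*, had unadjusted p above 0.05. *Npas4*, a transcription factor made after calcium entry, lay between 380 and 573 in the Water mice, 499 and 608 in the Acute mice and 435 and 600 in the Chronic mice (0.16 ± 0.093 SE in Acute, 0.07 ± 0.089 SE in Chronic). None of these genes was called by edgeR.

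**Figure D3:**
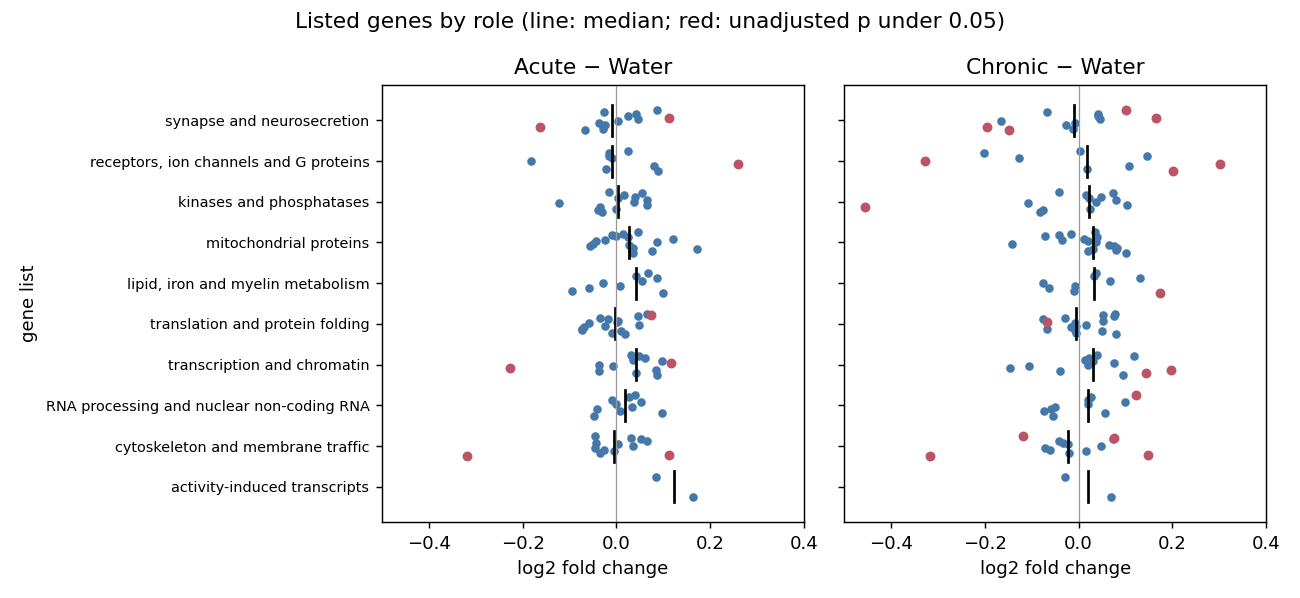
Each point is the log2 fold change against Water of a gene of the set in 1 of 10 role lists, for Acute (left) and Chronic (right), with a line at each list's median and red for an unadjusted p under 0.05. The medians lie near 0 in every list of more than 2 genes.

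GC content and length moved with direction. The 26 genes higher in Chronic at an unadjusted p under 0.05 had a median GC content of 55.3% and a median length of 1.54 kb, and the 18 lower had 48.3% and 3.09 kb (17 with an annotated length). Over all genes tested the same split gave 55.8% and 1.33 kb against 46.2% and 2.72 kb. In Acute against Water the medians were 54.4% and 1.57 kb for the 11 higher genes and 48.2% and 3.33 kb for the 5 lower. With offsets that take out each mouse's trend on GC content and length, 37 of the 245 genes had an unadjusted p under 0.05 in Chronic (15.1%, beside 8.99% of all genes tested in that fit) and 12 in Acute (4.9%, beside 4.14%). Genes of both tables on the same chromosomes, with a mean of 100 or more, were counted at an unadjusted p under 0.05 in Chronic against Water in the fit without offsets. On chromosome 19 it was 14% of the set against 19.9% of those genes, on chromosome 18 it was 23.8% against 15.5%, and on chromosome 17 it was 17.6% against 16.3%. These differences between shares were not tested.

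Genes of the set varied between mice about as much as others, with a median SD within groups of 0.098 on the log2 scale against 0.105 for the genes of both tables. The 12 genes with an SD over 0.25 included several known from neighbouring structures or other cell types. *Lrrc10b*, a leucine-rich repeat protein enriched in striatum, had 539, 462, 591, 351, 137 and 393 in the Water mice, 204, 402, 473, 553 and 346 in the Acute mice, and 220, 219, 450, 285, 184 and 366 in the Chronic mice. *Gnal*, the G protein alpha subunit of striatal dopamine receptors and olfactory neurons, ranged from 4732 to 8940 over the 17 mice. Both followed the mean log2 CPM of 8 striatal markers, with Pearson's r = 0.95 and Spearman's rho = 0.96 for *Lrrc10b* and r = 0.90 and rho = 0.92 for *Gnal*. The permutation p was 1e-05 for each, the smallest that 100000 resamples can give (adjusted p = 3.5e-05 over 7 relations). Without the 2 mice farthest from the median score r was 0.97 and 0.88, and within the 3 groups it was 0.95 to 0.98 and 0.81 to 0.96. The striatal score had a median of 6.73 in the Water mice (range 5.66 to 6.95), 6.58 in the Acute mice (5.88 to 7.04) and 5.97 in the Chronic mice (5.56 to 6.85). None of its 8 markers was at 0. With that score as a covariate in edgeR, 43 of the 245 genes had an unadjusted p under 0.05 in Chronic against Water (17.6%, beside 13.9% of all genes tested in that fit). The Chronic log2 fold change was then 0.17 for *Gng3* and 0.14 for *Snx32*, but it was -0.29 for *Stk32a* and 0.16 for *Adra2a*.

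*Opalin* followed the mean of the 9 other oligodendrocyte markers (r = 0.71, rho = 0.72, permutation p = 0.00151 and 0.00175, adjusted 0.00352 and 0.00408, r = 0.69 without the 2 farthest mice). The score ran from 6.88 to 7.21 in the Water, 6.77 to 7.25 in the Acute and 6.69 to 7.22 in the Chronic mice. *Scd2* followed the same score (r = 0.68, rho = 0.61, permutation p = 0.00212 and 0.0104, adjusted 0.00371 and 0.0146), and r was 0.53 without the 2 farthest mice. Within the 3 groups r was 0.66 to 0.79 for *Opalin* but 0.28 to 0.87 for *Scd2*. *Mpeg1*, a macrophage perforin, had r = 0.54 and rho = 0.62 with the microglial score (permutation p = 0.0245 and 0.00887, adjusted 0.0306 and 0.0146, r = 0.65 without the 2 farthest). *Acta2*, the actin of vascular smooth muscle, had r = 0.54 and rho = 0.47 with the endothelial and pericyte score (permutation p = 0.0262 and 0.0591, adjusted 0.0306 and 0.0689, r = 0.60 without the 2 farthest). *Notch3*, a receptor of mural cells, had r = 0.24 and rho = 0.40 with that score (permutation p = 0.349 and 0.11, adjusted 0.349 and 0.11, r = 0.12 without the 2 farthest). Within the 3 groups r was 0.46 to 0.80 for *Mpeg1*, 0.42 to 0.61 for *Acta2* and -0.01 to 0.70 for *Notch3*, and groups of 5 or 6 mice give such values little precision. These 7 relations were chosen with the values known.

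Choroid plexus and ependyma markers differed most between mice of one group, from 0.377 to 5.03 mean log2 CPM in the Water mice, 0.355 to 4.73 in the Acute mice and -0.237 to 4.93 in the Chronic mice. *Trpm3*, a cation channel of choroid plexus epithelium that neurons also make, had 1455, 1269, 1324, 2372, 2644 and 1476 in the Water mice, 1280, 1733, 1859, 1466 and 2572 in the Acute mice, and 2272, 1505, 1102, 1180, 1766 and 1374 in the Chronic mice. In each group its highest mouse was also the one with the highest choroid and ependyma score. *Rsph1*, a radial spoke protein of motile cilia, ranged from 73.3 to 198 over the 17 mice. Neither gene differed between groups at an unadjusted p under 0.05.

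**Figure D4:**
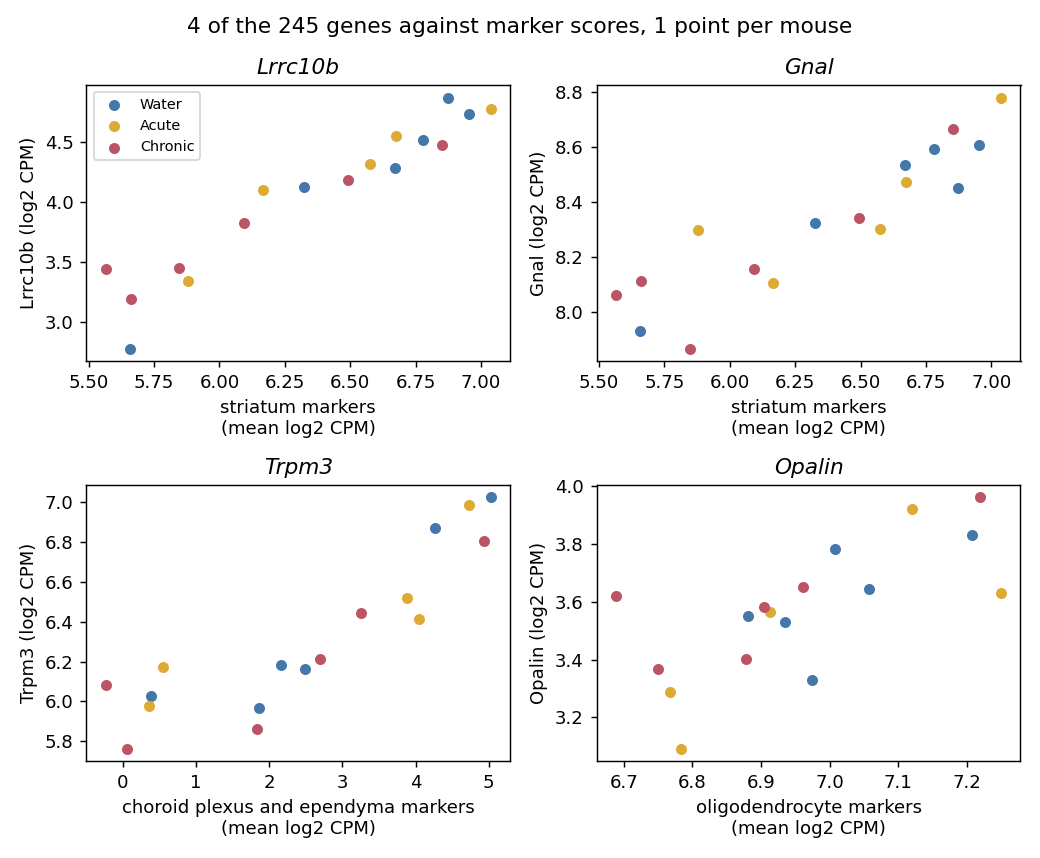
Log2 CPM of Lrrc10b, Gnal, Trpm3 and Opalin is plotted against the mean log2 CPM of striatal, choroid plexus and ependyma, or oligodendrocyte markers, with 1 point per mouse coloured by group. Mice of all 3 groups lie along the same line for Lrrc10b (r = 0.95) and Gnal (r = 0.90), and spread more widely for Opalin (r = 0.71).

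*Gm10359* had by far the widest spread, and its counts cannot be assigned with certainty. It is a processed pseudogene (ENSMUSG00000094708, chromosome 5, 105862701 to 105863702, minus strand) whose 1002-base transcript matched a *Gapdh* transcript, the glycolytic enzyme used as a reference gene, at 100% identity over all 1002 bases. Its normalized counts were 7184, 5241, 6662, 3656, 3876 and 5511 in the Water mice, 4784, 3696, 2981, 4338 and 2623 in the Acute mice, and 0, 944, 3896, 2780, 680 and 5204 in the Chronic mice. Its log2 fold change in Chronic against Water was -1.25 ± 0.578 (SE), with an adjusted p of 0.351. Limma-voom gave -3.37, DESeq2 gave -1.25 with an unadjusted p of 0.152, and the striatal covariate gave -0.99. *Gapdh* itself lay between 40996 and 54309 over the 17 mice, with its highest value in the mouse where *Gm10359* was at 0. The pseudogene took 7.66% of the sum of both. *Gm10053* matched *Cycs*, cytochrome c, at 99.9% over 946 bases and took 30.9% of their sum, and *Nutf2-ps1* matched *Nutf2*, a nuclear import factor, at 100% over 868 of 901 bases and took 85.5% of their sum. Of these genes the annotation classes only *Gm10359* as a processed pseudogene. Their counts depend on how Salmon split shared reads, and no other gene of the set was searched for copies. In addition, 72 of the 245 genes overlap another tested gene, 65 of them one on the opposite strand and 10 one on the same strand.

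**Figure D5:**
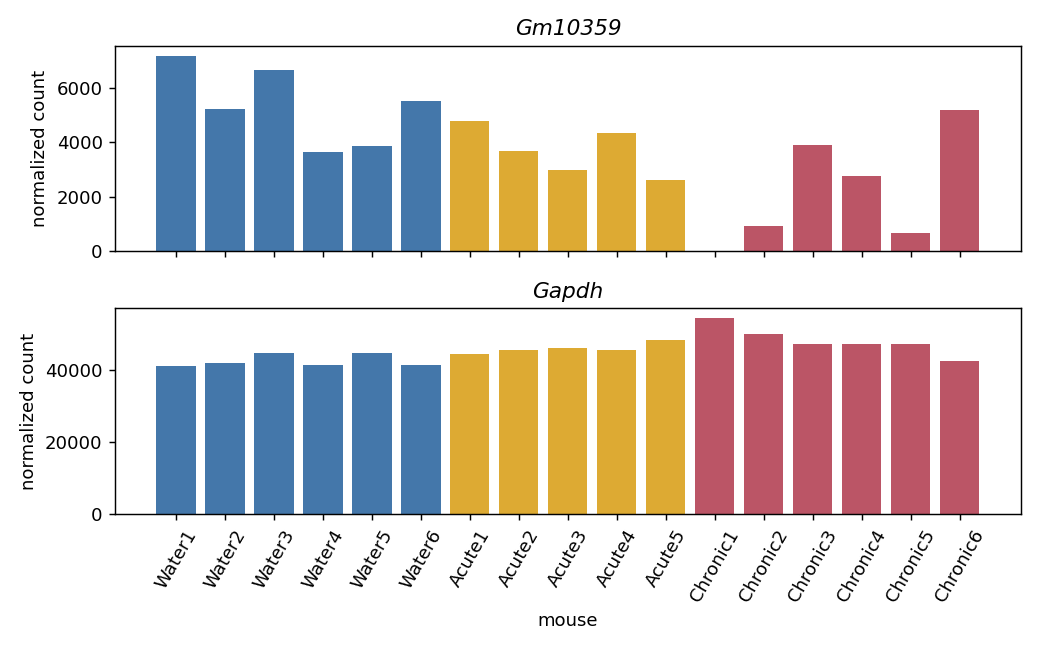
Bars give the normalized counts of the pseudogene Gm10359 (top) and of Gapdh (bottom) in each of the 17 mice, coloured by group, from 0. Gm10359 runs from 0 in Chronic mouse 1 to 7184 in Water mouse 1, while Gapdh stays between 40996 and 54309.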

How the data were processed

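Paired-end sequencing covered amygdala RNA of 28 female mice in 2 batches, and the 17 second-batch mice were analysed here. Per the labels and the study's methods, the authors quantified reads with Salmon 0.14.1 (quality by FastQC 0.11.8) on GRCm38 transcripts, used tximport for gene sums, and deposited raw counts as whole numbers, a table per batch, without normalization. Chi-square tests of counts between mice of a group gave at least 3.96 per degree of freedom over 40 pairs, so no library duplicated another of its group; pairs between groups were not tested. Mice are the replicates, and total counts set the counting error.

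The 16435 genes at or above a mean count of 10 entered edgeR 4.0.16 (R 4.3.3), with TMM normalization, quasi-likelihood tests over the 3 groups, two-sided p-values and Benjamini-Hochberg adjustment over all genes at a threshold of 0.05. The SE of a log2 fold change was its size over the square root of F. Log2 CPM used a prior count of 2, and exact permutation tests used it over every regrouping of the mice. Scripts were tested on simulated data. Transcripts of *Gm10359*, *Gm10053* and *Nutf2-ps1* alone were aligned with BLAST 2.17.0 to GENCODE M21 transcripts.

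Alternatives were DESeq2 1.42.0, limma-voom (limma 3.58.1), other normalizations and filters, fits of only the groups compared, a replicate block, GC content and length offsets (values for 99.9% of genes tested), leaving out each mouse, and, added after the data were seen, a striatal score as a covariate. The members and lists were chosen with earlier results of these data known. The rule for named genes took called genes, the 8 smallest p in each direction against Water, the 12 highest by count and by count per kb, the 4 most abundant and 2 smallest p of each role list, the 3 nearest the threshold and marker genes. *Htr4*, *Pcgf6*, *Adrb1*, *Lrrtm2*, *Slc18a2*, *Lrrc10b*, *Trpm3*, *Rsph1*, *Mpeg1*, *Acta2*, *Notch3*, *Otud6b*, *Yif1a*, *Gm10359*, *Gm10053* and *Nutf2-ps1* were named after their values were seen. A gene of the set that the rule named is not reported here. First-batch counts of these genes, behavior and blood ethanol were not analysed here.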

Additional observations from a re-analysis of the deposited data

Results flagged for a closer look

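In 10 of 219 groups of mice, over the named genes and the share of counts held by the set, the highest or lowest mouse stood apart from the others by Dixon's criterion at the 95% level. That is 4.57% of the groups, and chance alone flags about 5%. *Slc37a1* was at 226 normalized counts in Chronic mouse 5. *Snx32* was at 1742 normalized counts in Chronic mouse 1. *Neto1* was at 3105 normalized counts in Water mouse 5. *Sfr1* was at 1575 normalized counts in Chronic mouse 6. *AC121821.1* was at 139 normalized counts in Chronic mouse 1. *Pard6g* was at 135 normalized counts in Acute mouse 3. *Scd2* was at 28515 normalized counts in Acute mouse 4. *Klf9* was at 2675 normalized counts in Water mouse 5. *Actr1a* was at 4317 normalized counts in Acute mouse 2. *Actr1a* was at 4416 normalized counts in Chronic mouse 4. Without Chronic mouse 1 the log2 fold change in Chronic against Water was 0.13 for *Snx32* and 0.21 for *AC121821.1*. Water mouse 5 is the lowest Water mouse for *Neto1*, so leaving it out could only widen that difference.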

How the results depend on the processing

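The count of genes called in the set at an adjusted p under 0.05 stayed at 0 in all 3 comparisons under RLE and upper quartile normalization, library totals alone, no filter, a filter at a mean of 100 counts, limma-voom, fits of only the groups compared, GC content and length offsets and the striatal score, and with the set taken at a mean of 50 (280 genes) or 200 counts (204 genes). The exceptions were in Chronic against Water, where DESeq2 called 5 genes, and where leaving out 1 mouse gave 0 to 1 called genes, the 1 being *Gng3* without Chronic mouse 6. The cause was not tested. At an unadjusted p under 0.05, leaving out 1 mouse gave 6 to 21 genes in Acute against Water, 35 to 51 in Chronic against Water and 7 to 14 in Chronic against Acute (14 without Chronic mouse 5). The 44 genes of Chronic against Water were followed over the 12 fits that left out a Chronic or a Water mouse. Of these genes 24 kept an unadjusted p under 0.05 throughout. Of the 16 in Acute against Water, 6 did so over the 11 fits without an Acute or a Water mouse. All kept their direction. They were chosen by that p in these same mice, so a change of sign was unlikely from the start. The median log2 fold change of the set lay between 0.00276 and 0.0219 in Chronic against Water, between 0.00086 and 0.0116 in Acute against Water and between -0.00239 and 0.0124 in Chronic against Acute when 1 mouse was left out. Replicate numbers did not pair the mice, since the correlation of deviations over 16 same-number pairs ran from -0.32 to 0.31 and in 5 of 32 cases a mouse correlated best with its own number. A replicate block gave 0 called genes and 11, 44 and 11 genes at an unadjusted p under 0.05 in Acute against Water, Chronic against Water and Chronic against Acute. With the block and the GC content and length offsets these were 11, 34 and 11. Over the log2 fold changes of the named genes, 4212 values under an alternative kept their direction and call or moved by less than the spread between mice, 16 moved by more, all with the offsets, and 6 passed the threshold, the 5 DESeq2 calls and *Gng3* without Chronic mouse 6. With the offsets *Pdzd8* in Chronic against Water moved from -0.15 to -0.05, *Lzts2* from 0.14 to 0.08 and *Rtn3* from 0.04 to 0.11. Values spread more among genes of low count. For genes of both tables with a mean of 100 to 178 counts, the 5th and 95th percentiles in Chronic against Water were -0.26 and 0.20. At a mean of 1000 to 1778 counts they were -0.15 and 0.14. The part of depth in this was not tested.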
